A study of Neurospora crassa with 6 samples.

Results

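The genes described here are those that the deposited annotation places in the KEGG pathways for steroid biosynthesis, fatty acid biosynthesis, biosynthesis of unsaturated fatty acids, fatty acid breakdown and Peroxisome. They were taken by pathway code alone, and 50 of the 9872 entries of the expression table carried such a code. Steroid biosynthesis held 13 of them, fatty acid biosynthesis 3, biosynthesis of unsaturated fatty acids 5 and Peroxisome 29. No entry carried the code for fatty acid breakdown, and no member carried more than 1 of the codes.

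Fungal membranes contain ergosterol, which is built from lanosterol by a chain of enzymes that remove methyl groups, add a methyl group to the side chain and move double bonds. Fatty acids are built by a large synthase of alpha and beta subunits and are then lengthened by elongases and given double bonds by desaturases. Peroxisomes are small organelles that oxidise fatty acids and hold enzymes such as catalase, and the proteins called peroxins (the *pex* genes) build them and import their enzymes. In filamentous ascomycetes, peroxisomes also give rise to the Woronin bodies that plug septal pores.

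RNA sequencing gave the transcript levels of *Neurospora crassa* strains that lack *mak-1* (Δmak-1) or *mak-2* (Δmak-2) and in the wild type (WT). *mak-1* encodes the MAP kinase of the cell wall integrity pathway and *mak-2* that of the pheromone response pathway. Each deletion was present as 1 stock strain, and both deletion strains are of mating type a. Wild types of both mating types were in use, and which of them was sequenced is not stated, so a difference in mating type cannot be told apart from the deletions. Each strain was taken at the protoperithecial stage (S), grown on cellophane over synthetic crossing medium with 0.1% sucrose in constant darkness (25 °C, 3.5 days), and as vegetative hyphae (A) from shaken liquid cultures in Vogel's medium (28 °C, 22 h). Medium, surface, temperature and age changed together with the stage, and the light given to the liquid cultures is not stated, so these cannot be told apart from the stage. Each of the 6 conditions is 1 library, made from the mixed RNA of 3 repeats. No difference below could be checked against replicates, so p-values are not printed.

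The libraries held 2602076 to 3668046 mapped reads, and 10 RPKM (reads scaled to gene model length and to the library's mapped reads) stood for 35.5 to 50.1 reads of a gene of median length. The study's thresholds were used for calls, so that a raised gene has a ratio over 2, a lowered gene a ratio under 0.5, and either exceeds 10 RPKM in 1 or both of its libraries. Bracketed ranges are 95% intervals (exact, Clopper-Pearson) of the recovered reads, which cover counting error only. *mak-2* had no reads in either Δmak-2 library, and *mak-1* had 6.08 RPKM at S and 6.39 RPKM at A in the Δmak-1 mutant, against 148 and 42.1 RPKM in the wild type. Of 4 marker genes of female structures, 4 were lowered in each mutant at S, with summed levels of 83.4 RPKM in Δmak-1 and 37.1 RPKM in Δmak-2 against 2925 RPKM in the wild type. *poi-2*, the highest of them in the wild type, had 3.84 and 2.51 RPKM in the mutants against 2072 RPKM. Of 6 markers of conidia and aerial hyphae, 6 were raised in each mutant at S, with sums of 15842 RPKM in Δmak-1 and 17081 RPKM in Δmak-2 against 915 RPKM in the wild type. These markers moved with the strain at S, and their part in the differences below was not tested. In bulk RNA, fewer cells of a type and less RNA per cell cannot be told apart.

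All 50 members had reads in all 6 libraries. In the wild type between stages, 45 of them exceeded 10 RPKM in at least 1 library, 23 were raised at S and 6 lowered. These are 46.0% and 12.0% of the members, beside 29.3% raised and 6.51% lowered over all 9872 entries. A call needs 10 RPKM, which members passed more often than other entries. Of the 45 members that passed it, 23 were raised and 6 lowered, beside 46.5% and 10.3% of all entries that passed it. The median ratio of S to A was 2.31 for the members and 1.86 for all entries above 10 RPKM. Most genes thus shifted upwards at S, and rescaling the libraries by the median of ratios removed 0.81 of this on the log2 scale. After that rescaling, for which the 10 RPKM minimum was applied to the rescaled values, 11 members were raised and 9 lowered, beside 14.5% and 13.7% of all entries. At S, the Δmak-1 mutant had 0 members raised and 6 lowered relative to the wild type, beside 7.15% and 5.43% of all entries, and after rescaling 0 and 7, beside 5.81% and 5.99%. The Δmak-2 mutant had 4 raised and 2 lowered there, beside 5.47% and 6.84%, and after rescaling 3 and 2, beside 5.04% and 6.57%. In vegetative hyphae, Δmak-1 had 11 raised and 2 lowered (9.96% and 3.65% of all entries), and 6 and 3 after rescaling (4.85% and 6.84%), which removed 0.39 on the log2 scale there. Δmak-2 had 2 and 2 there (3.62% and 3.19%), and 3 and 2 after rescaling (3.55% and 4.31%). Among the entries above 10 RPKM alone, the shares raised and lowered were 11.0% and 8.35% in Δmak-1 at S, 8.56% and 10.7% in Δmak-2 at S, 18.5% and 6.77% in Δmak-1 at A, and 7.26% and 6.41% in Δmak-2 at A. The members above 10 RPKM numbered 45 at S and 39 at A. Both mutants were set against the same wild-type library at each stage, so their ratios are not independent of each other. Most members, 41 of 50, were called in neither mutant at S, beside 82.8% of all entries.

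Some sterol genes were much higher in vegetative hyphae than at S, while others were not. The summed level of the 13 was 833 RPKM in Δmak-1, 1117 RPKM in Δmak-2 and 774 RPKM in the wild type at S, and 4973, 3657 and 3569 RPKM in the same strains at A. Most of each sum at A came from NCU06402, with 3092, 2339 and 2332 RPKM. In the wild type 4 of the 13 were lowered at S and 2 raised, with a median ratio of 0.788 and 4 ratios above 1. After rescaling by the median of ratios these counts were 6 and 1. Over all entries, 6.51% were lowered and 29.3% raised, and 13.7% and 14.5% after rescaling. The 4 lowered genes encode cytochrome P450 51, the C-4 methylsterol oxidase, the C-5 sterol desaturase and an entry named lathosterol oxidase. Cytochrome P450 51 removes the 14-alpha methyl group of lanosterol and is the target of azole fungicides.

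**Figure D1:**
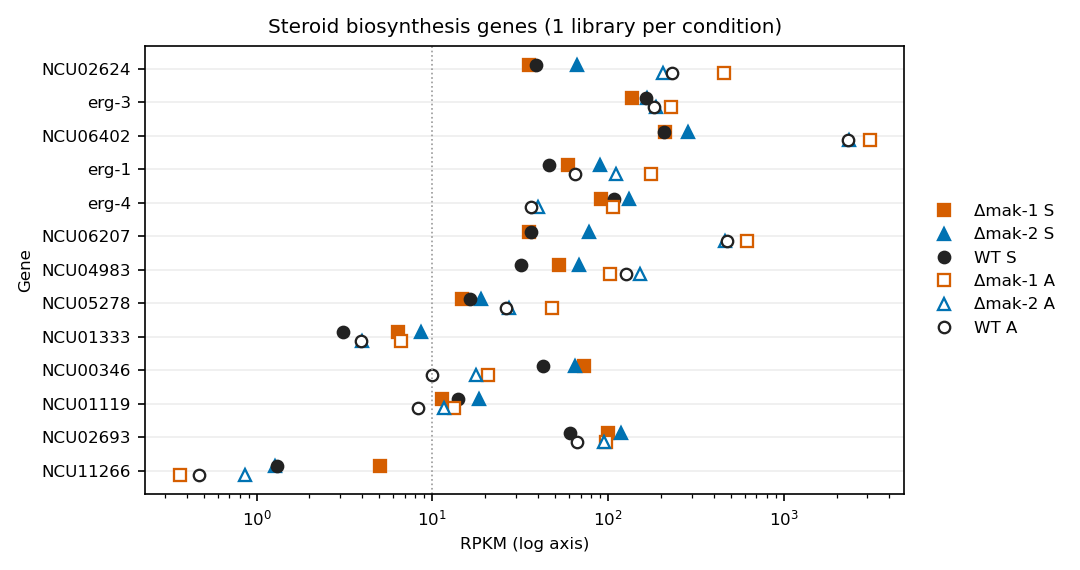
RPKM (log axis) of the 13 steroid biosynthesis genes in the 6 libraries, filled symbols for the protoperithecial stage and open symbols for vegetative hyphae, with a dotted line at 10 RPKM. NCU02624, NCU06402 and NCU06207 have their 3 open symbols far to the right of the 3 filled ones, whereas NCU00346 shows the opposite order.

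NCU06402, which encodes the C-4 methylsterol oxidase that starts removal of the methyl groups at carbon 4, was the highest member of all. It had 211 RPKM in Δmak-1, 284 RPKM in Δmak-2 and 207 RPKM in the wild type at S, and 3092, 2339 and 2332 RPKM at A. The 3 S libraries lay well below the 3 A libraries, and the ratio of S to A was 0.0683 in Δmak-1 (0.0645 to 0.0723), 0.122 in Δmak-2 (0.115 to 0.128) and 0.0888 in the wild type (0.0835 to 0.0944). NCU06207, which encodes the C-5 sterol desaturase, had 35.6 RPKM in Δmak-1, 78.2 RPKM in Δmak-2 and 36.6 RPKM in the wild type at S, and 621, 463 and 477 RPKM at A. The S value of Δmak-2 stood above those of the other strains, at 2.14 times the wild-type level (1.72 to 2.66), an interval that reaches below 2. NCU02624, the cytochrome P450 51 gene, had 35.5 RPKM in Δmak-1, 66.3 RPKM in Δmak-2 and 39.1 RPKM in the wild type at S, and 459, 207 and 233 RPKM at A. The stage order was the same in the 3 strains, and NCU02624 at A in Δmak-1 was 1.97 times the wild-type level (1.83 to 2.13), just under the threshold. These 3 genes were called lowered at S in each strain, also after rescaling.

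NCU04983, annotated as a lathosterol oxidase, which names the same kind of desaturation step as the C-5 desaturase, changed less. It had 52.7 RPKM in Δmak-1, 68.1 RPKM in Δmak-2 and 32.1 RPKM in the wild type at S, and 103, 153 and 127 RPKM at A. The wild type fell to 0.253 of its vegetative level at S (0.200 to 0.317), and Δmak-2 was 2.12 times the wild type at S (1.67 to 2.71). The sources used here do not say how reads shared by related genes were assigned.

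The other named sterol enzymes were not called lowered in the wild type. *erg-4*, the sterol 24-C-methyltransferase gene whose enzyme adds the side-chain methyl group of ergosterol, had 91.7 RPKM in Δmak-1, 131 RPKM in Δmak-2 and 109 RPKM in the wild type at S, and 106, 40.1 and 36.4 RPKM at A. In the wild type it was raised 2.99-fold at S (2.29 to 3.94), but 1.70-fold after rescaling, which is no call. In Δmak-1 the A library was as high as the S libraries, 2.91 times the wild type at A (2.23 to 3.84). *erg-1*, the C-8 sterol isomerase gene, had 59.0 RPKM in Δmak-1, 90.2 RPKM in Δmak-2 and 46.4 RPKM in the wild type at S, and 177, 111 and 64.7 RPKM at A. Its A level in Δmak-1 was 2.73 times that of the wild type (2.30 to 3.27). Both *erg-1* and *erg-4* stayed raised in Δmak-1 at A after rescaling, with ratios of 2.08 and 2.22. Between the stages of the wild type *erg-1* had a ratio of 0.717 (0.571 to 0.899), and NCU05278, the cytochrome P450 61 gene for the side-chain desaturase, 0.623 (0.465 to 0.833). Rescaling brings these to 0.409 and 0.356, so that both are then lowered. NCU05278 spanned 14.8 to 48.1 RPKM over the 6 libraries, and *erg-3*, the sterol C-14 reductase gene, 137 to 228 RPKM. NCU01333, annotated as the last reductase of the side chain, stayed between 3.11 and 8.62 RPKM.

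Of the 4 sterol members without a named product, NCU00346 was raised at S. It had 73.0 RPKM in Δmak-1, 65.1 RPKM in Δmak-2 and 42.6 RPKM in the wild type at S, and 20.7, 17.8 and 9.996 RPKM at A. Its ratio of S to A was 3.54 (2.72 to 4.65), 3.66 (2.70 to 5.03) and 4.26 (2.81 to 6.69) in the same order of strains, and above 2 in each after rescaling. At A it was raised in Δmak-1, 2.07 times the wild-type level (1.31 to 3.35), but 1.57 times after rescaling. NCU01119 and NCU02693 were not called in any of the 5 comparisons with the wild type or between its stages, and NCU11266 stayed at or below 5.03 RPKM.

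Over the 13 sterol genes, Δmak-1 had none raised and none lowered at S (median ratio to the wild type 1.02). Δmak-2 had 2 raised and none lowered there, with a median of 1.53 and with 12 of 13 ratios above 1, beside a median of 0.998 over all entries above 10 RPKM. The lowest of the 13 ratios in Δmak-2 was 0.979 and the highest 2.77, the highest at a gene below 10 RPKM. In vegetative hyphae Δmak-1 had 3 raised and none lowered, with a median of 1.60, where the median of all entries above 10 RPKM was 1.33. At S, 7.15% of all entries were raised and 5.43% lowered in Δmak-1, and 5.47% and 6.84% in Δmak-2. In hyphae these shares were 9.96% and 3.65% in Δmak-1.

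The fatty acid genes went the other way between stages. Of the 8 members in the fatty acid pathways, 7 were raised at S in the wild type and none lowered, beside 29.3% and 6.51% of all entries. All 8 exceeded 10 RPKM, and 46.5% of all such entries were raised. The median ratio of the 8 was 4.21, and 5 were raised after rescaling, beside 14.5% of all entries. The summed level of the 8 at S was 897 RPKM in Δmak-1 and 1379.5 RPKM in Δmak-2, against 3319 RPKM in the wild type. In hyphae the sums were 966 and 459 RPKM in the mutants and 503 RPKM in the wild type. Most of the wild-type sum at S came from *ods*.

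**Figure D2:**
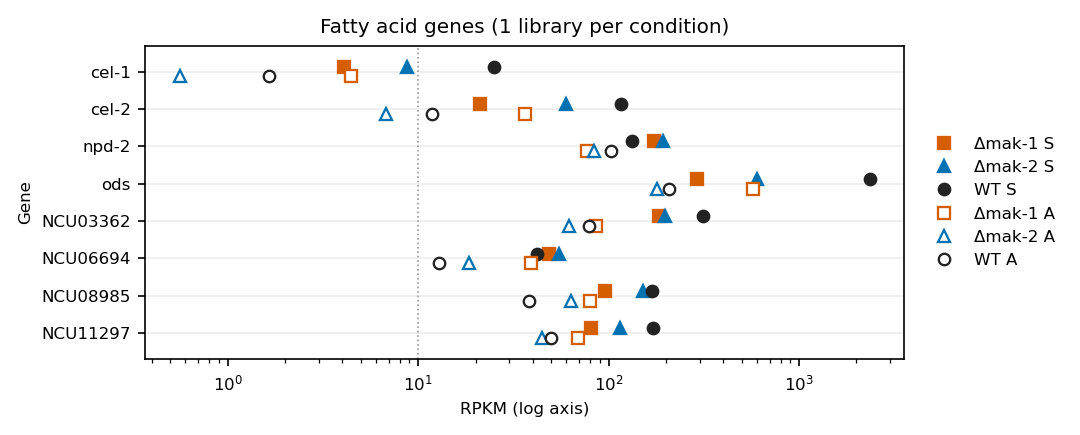
RPKM (log axis) of the 8 fatty acid genes in the 6 libraries, filled symbols for the protoperithecial stage and open symbols for vegetative hyphae, with a dotted line at 10 RPKM. For *cel-1*, *cel-2* and *ods* the wild type at the protoperithecial stage lies to the right of the other 5 libraries, with Δmak-2 next at that stage.

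*ods*, a gene of fatty acid metabolism listed under unsaturated fatty acids, had 290.0 RPKM in Δmak-1, 599 RPKM in Δmak-2 and 2349.8 RPKM in the wild type at S. At A it had 573, 179.5 and 207 RPKM in the same strains. The wild-type S library stood above the other 5, at 11.3 times its own A library (10.2 to 12.6). At S *ods* had 0.123 times the wild-type level in Δmak-1 (0.114 to 0.133) and 0.255 times in Δmak-2 (0.240 to 0.270). Between its own stages *ods* was raised 3.34-fold in Δmak-2 (2.98 to 3.75; 1.98-fold after rescaling) and had a ratio of 0.506 in Δmak-1 (0.463 to 0.553). The ratio in Δmak-1 was not called, but became a lowered call after rescaling. The study had picked *ods* out of the genes lowered in both mutants in these libraries, so its direction is not independent evidence.

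*cel-1* and *cel-2* encode the alpha and beta subunits of fatty acid synthase and lie next to each other on chromosome IV in the RefSeq order of assembly NC12. *cel-2* had 21.1 RPKM in Δmak-1, 59.7 RPKM in Δmak-2 and 116 RPKM in the wild type at S, and 36.6, 6.78 and 11.8 RPKM at A. It was raised 9.88-fold at S in the wild type (8.53 to 11.5) and 8.80-fold in Δmak-2 (7.30 to 10.7), but had a ratio of 0.576 between stages in Δmak-1 (0.513 to 0.646). The last ratio was not called, but became a lowered call after rescaling. At S, *cel-2* had 0.181 times the wild-type level in Δmak-1 (0.164 to 0.200), a lowered call, and 0.514 times in Δmak-2 (0.479 to 0.550), just over the threshold of 0.5 and not called. *cel-1* was lower throughout, with 4.09 RPKM in Δmak-1, 8.69 RPKM in Δmak-2 and 25.1 RPKM in the wild type at S, and 4.42, 0.561 and 1.65 RPKM at A. The same order of libraries was thus seen for the alpha subunit, with the wild type at S highest. *cel-1* had 0.163 times the wild-type level in Δmak-1 at S (0.128 to 0.206) and 0.347 times in Δmak-2 (0.288 to 0.415). Its 3 vegetative libraries lay below 10 RPKM, so it could not be called there.

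At S the other members of these pathways differed less between the mutants and the wild type. NCU11297 had 80.5 RPKM in Δmak-1, 115 RPKM in Δmak-2 and 171 RPKM in the wild type at S, and 69.1, 44.8 and 50.1 RPKM at A. It was called lowered in Δmak-1 at S, with 0.470 times the wild-type level (0.418 to 0.528), an interval that crosses the threshold. NCU03362 (184 and 198 RPKM in Δmak-1 and Δmak-2 against 314 RPKM in the wild type at S) and NCU08985 (95.9 and 152 against 169 RPKM) stayed above 0.5 of the wild-type level. Both were raised at S in the wild type, 4.002-fold (3.43 to 4.69) and 4.42-fold (3.38 to 5.86), and remained above 2 after rescaling. NCU06694, the fatty acid elongase gene, did not fall in the mutants at S, with 48.7 RPKM in Δmak-1 and 54.7 RPKM in Δmak-2 against 42.1 RPKM in the wild type. *npd-2*, whose product the annotation used here does not name but which it places in the peroxisome or glyoxysome, had 173 and 193 RPKM in the mutants against 132 RPKM in the wild type at S, and 77.0, 83.5 and 102 RPKM at A. Its wild-type ratio of 1.29 (1.12 to 1.49) made it the only fatty acid member not raised at S.

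In vegetative hyphae the Δmak-1 mutant had 4 of the 8 fatty acid genes raised and none lowered, with a median ratio of 2.39, and 3 were raised after rescaling. The 4 were *cel-2* at 3.11 times the wild-type level (2.65 to 3.66), NCU06694 at 3.05 times (2.08 to 4.59), *ods* at 2.77 times (2.47 to 3.10) and NCU08985 at 2.09 times (1.56 to 2.84; 1.60 times after rescaling). In Δmak-1, *cel-2* and *ods* were thus called raised at A and lowered at S against the wild type, while *cel-1* had ratios of 2.68 (1.68 to 4.41) and 0.163. Δmak-2 had none of the 8 called at A. Over all entries, 9.96% were raised and 3.65% lowered in Δmak-1 at A (4.85% and 6.84% after rescaling). In Δmak-2 at A the shares were 3.62% and 3.19%. Within each mutant, 2 of the 8 were raised at S relative to A in Δmak-1 and 7 in Δmak-2, and none was lowered. Over all entries, 21.0% were raised and 6.11% lowered in Δmak-1, and 25.6% and 5.81% in Δmak-2. After rescaling none of the 8 was raised and 2, *cel-2* and *ods*, were lowered in Δmak-1, beside 12.8% and 10.9% of all entries. In Δmak-2 1 was then raised and none lowered, beside 12.4% and 12.7%. This rescaling removed 0.52 on the log2 scale between the stages of Δmak-1 and 0.75 between those of Δmak-2.

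**Figure D3:**
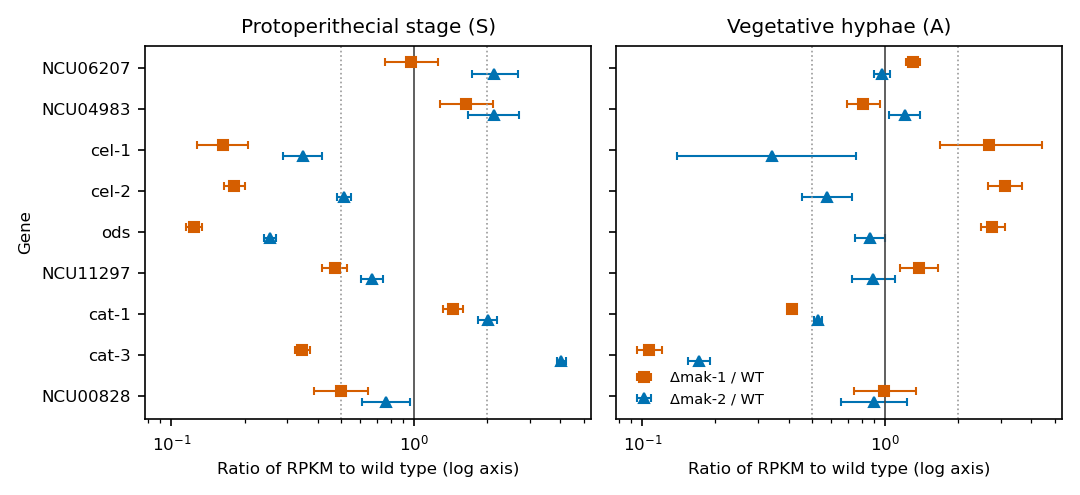
Ratio of each mutant to the wild type (log axis) for the 9 members called in either mutant at the protoperithecial stage, with exact 95% counting intervals, at the protoperithecial stage (left) and in vegetative hyphae (right), dotted lines marking 0.5 and 2. *cel-1*, *cel-2* and *ods* lie left of 1 in both mutants at the protoperithecial stage and right of 1 in Δmak-1 in hyphae. *cat-3* lies on opposite sides at the protoperithecial stage.

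The 29 genes under Peroxisome were a mixed group. The annotation gave a cellular location for 13 of them, which included a peroxisome or glyoxysome for 7 and the mitochondrion for 6. In the wild type 14 were raised at S and 2 lowered, with a median ratio of 2.32, and after rescaling 5 were raised and 3 lowered. The first counts are 48.3% and 6.90% of the 29, beside 29.3% and 6.51% of all entries. Of the 29, 26 exceeded 10 RPKM, and 46.5% of all such entries were raised and 10.3% lowered. After rescaling, 14.5% of all entries were raised and 13.7% lowered. In Δmak-1 at S none were raised and 2 lowered, and in Δmak-2 2 were raised and none lowered, with median ratios to the wild type of 0.894 and 1.03. Rescaling gave none raised and 3 lowered in Δmak-1 at S, beside 5.81% and 5.99% of all entries. In Δmak-2 at S it gave 1 raised and none lowered, beside 5.04% and 6.57%. In vegetative hyphae Δmak-1 had 4 raised and 2 lowered, but 1 raised and 3 lowered after rescaling. Δmak-2 had 2 and 2 there, and 3 and 2 after rescaling. At S, 7.15% of all entries were raised and 5.43% lowered in Δmak-1, and 5.47% and 6.84% in Δmak-2. In hyphae the shares were 9.96% and 3.65% in Δmak-1, and 3.62% and 3.19% in Δmak-2. Rescaling changed the hyphal shares to 4.85% and 6.84% in Δmak-1, and 3.55% and 4.31% in Δmak-2.

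**Figure D4:**
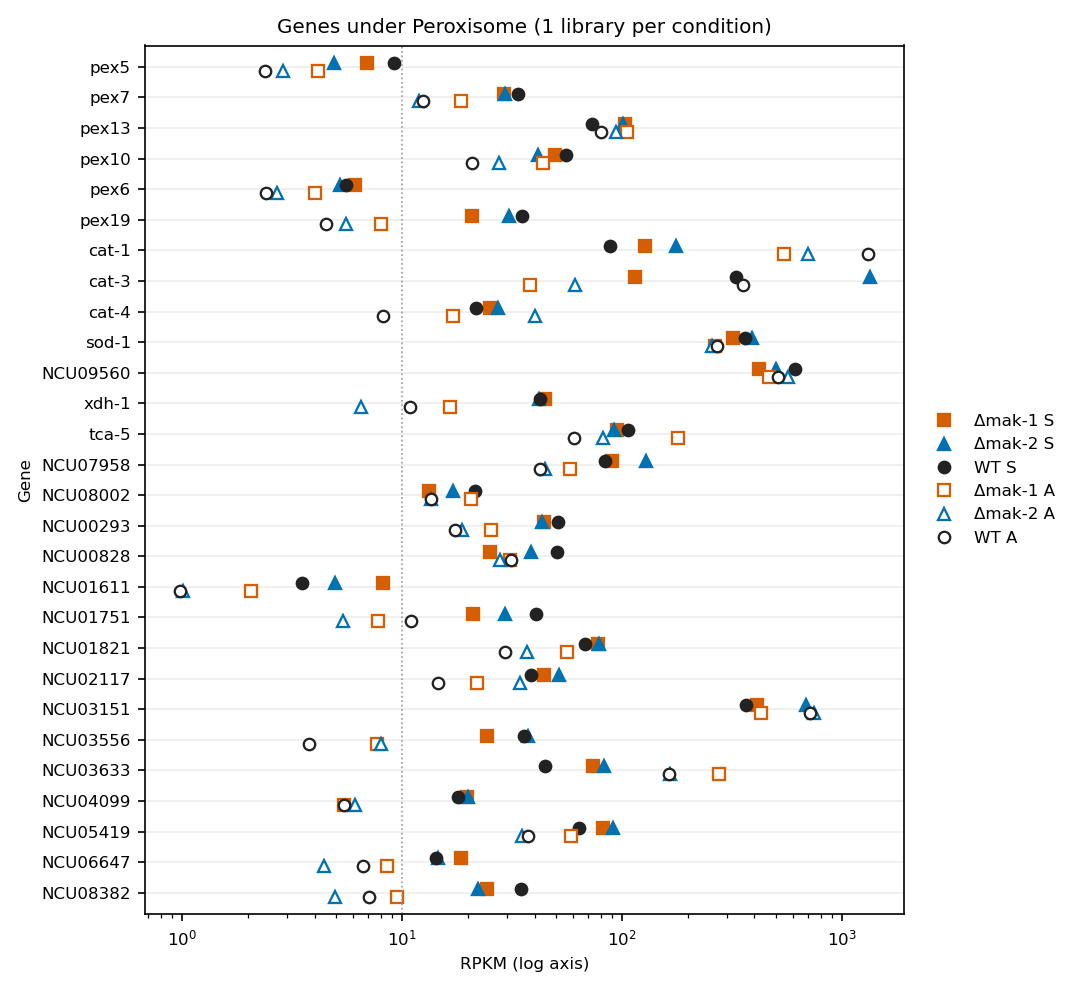
RPKM (log axis) of 28 of the 29 genes under Peroxisome in the 6 libraries, filled symbols for the protoperithecial stage and open symbols for vegetative hyphae, with a dotted line at 10 RPKM. For *pex19*, *xdh-1*, NCU03556 and NCU08382 the 3 filled symbols lie to the right of the 3 open ones, and for *cat-1* to the left. The *cat-3* symbols span from 37.9 to 1338 RPKM.

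None of the 7 peroxins was called in either mutant at S, where 82.8% of all entries were called in neither. *pex5* and *pex6* were too low to be called. The summed level of the 7 at S was 237 RPKM in Δmak-1, 238 RPKM in Δmak-2 and 236 RPKM in the wild type, and at A 209, 155 and 133 RPKM. *pex19*, which encodes the chaperone and import receptor for peroxisomal membrane proteins, changed most between stages. It had 20.7 RPKM in Δmak-1, 30.7 RPKM in Δmak-2 and 35.1 RPKM in the wild type at S, and 8.01, 5.54 and 4.51 RPKM at A. The S libraries lay above the A libraries in each strain, with ratios of 2.58 (1.78 to 3.82), 5.54 (3.56 to 9.01) and 7.79 (4.72 to 13.7). After rescaling the ratio in Δmak-1 was 1.798, below the threshold. *pex7*, the receptor gene for the amino-terminal targeting signal, and *pex10*, of the ubiquitin ligase complex, were raised 2.70-fold (1.998 to 3.69) and 2.67-fold (2.04 to 3.54) in the wild type, but neither of them after rescaling. *pex13*, a gene of the docking complex, kept between 72.6 and 105 RPKM. *pex5*, the receptor gene for the carboxy-terminal signal, and *pex6*, a peroxisome biogenesis factor gene, stayed below 10 RPKM in all libraries. In Δmak-1 at A, *pex10* was raised 2.09-fold (1.58 to 2.79), but not after rescaling.

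Among the Peroxisome members, a catalase gene had the ratio farthest from 1 in each of the 5 comparisons. The annotation placed none of these catalases in a peroxisome or glyoxysome. *cat-3*, which encodes the catalase that is abundant in growing hyphae and is annotated to the hyphal cell wall, had 115 RPKM in Δmak-1, 1338 RPKM in Δmak-2 and 331 RPKM in the wild type at S. At A it had 37.9, 60.9 and 355 RPKM. The wild type was alike at both stages, with a ratio of 0.933 (0.882 to 0.987), which rescaling moves to 0.532. At S the mutants lay on opposite sides of it, Δmak-1 at 0.346 times (0.322 to 0.372) and Δmak-2 at 4.04 times (3.87 to 4.21). At A both lay below it, at 0.107 times in Δmak-1 (0.0947 to 0.120) and 0.171 times in Δmak-2 (0.154 to 0.190). Among all entries, 19 (0.192%) had opposite calls in the mutants at S, and *cat-3* was the only member of this kind.

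*cat-1* encodes the catalase that accumulates in conidia and is annotated to the light response. It had 127 RPKM in Δmak-1, 176 RPKM in Δmak-2 and 87.8 RPKM in the wild type at S, and 545, 698 and 1318 RPKM at A. The wild type thus fell to 0.0666 of its vegetative level at S (0.0615 to 0.0720), the lowest ratio of any member. Δmak-2 was 2.01 times the wild type at S (1.83 to 2.20), and 1.98 times after rescaling, so that this call rests on the scaling. At A *cat-1* had 0.413 times the wild-type level in Δmak-1 (0.398 to 0.429) and 0.529 times in Δmak-2 (0.511 to 0.549). *cat-4*, another catalase gene, had 25.1, 27.2 and 21.7 RPKM at S in Δmak-1, Δmak-2 and the wild type, and 17.1, 40.0 and 8.18 RPKM at A. Its A ratios of 2.09 in Δmak-1 (1.39 to 3.22) and 4.90 in Δmak-2 (3.36 to 7.33) made it the only member raised in both mutants at A, with the ratio in Δmak-1 at 1.59 after rescaling. The summed conidial markers at A were 2669 RPKM in Δmak-1 and 48834 RPKM in Δmak-2 against 2359.5 RPKM in the wild type, of which the hydrophobin gene *eas* made up 2504, 47036 and 703 RPKM. The higher sums came mainly from *eas*, whereas several other markers of the list were lowered. In Δmak-1 1 of the 6 was raised and 3 were lowered (*con-6*, *con-8* and *con-10*, at 0.0628, 0.0728 and 0.0348 times the wild-type level), and *con-13* had no reads. In Δmak-2 1 was raised and 2 were lowered (*con-6* and *con-10*, at 0.237 and 0.128 times). The part of these markers in the catalase levels was not tested. The superoxide dismutase genes *sod-1* (256 to 389 RPKM) and NCU09560 (419.6 to 612 RPKM, annotated as mitochondrial) were called in none of the comparisons.

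Among the other named enzymes, *xdh-1*, the xanthine dehydrogenase gene of purine breakdown, had 44.8 RPKM in Δmak-1, 42.1 RPKM in Δmak-2 and 42.5 RPKM in the wild type at S, and 16.5, 6.51 and 10.9 RPKM at A. The 3 strains were alike at S, and the ratio of S to A was 2.71 (2.33 to 3.17), 6.47 (5.09 to 8.31) and 3.90 (3.19 to 4.80). *tca-5*, annotated as an NADP-dependent isocitrate dehydrogenase, was raised in Δmak-1 at A, with 179 RPKM in Δmak-1 and 81.9 RPKM in Δmak-2 against 60.3 RPKM in the wild type. Its ratio in Δmak-1 was 2.97 (2.56 to 3.47), whereas at S the 3 strains had 94.4, 92.0 and 106 RPKM. NCU07958, the dienoyl-CoA reductase gene needed to oxidise unsaturated fatty acids, and NCU08002, the carnitine acetyltransferase gene that moves acetyl units between organelles, were called in none of the 5 comparisons. NCU07958 had 1.97 times its vegetative level at S in the wild type (1.57 to 2.50), just under the threshold.

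Of the 13 Peroxisome members without a named product, 8 were raised at S in the wild type and 1 lowered, and 3 and 2 after rescaling. Over all entries, 29.3% were raised and 6.51% lowered there, and 14.5% and 13.7% after rescaling. NCU03556 had 24.4 RPKM in Δmak-1, 37.4 RPKM in Δmak-2 and 35.8 RPKM in the wild type at S, and 7.66, 8.05 and 3.75 RPKM at A. It was raised 9.53-fold in the wild type (5.16 to 19.6), the largest stage ratio under Peroxisome. NCU08382 (4.91-fold, 3.61 to 6.81) and NCU01751 (3.73-fold, 2.82 to 5.01) followed, and all 3 were above 2 after rescaling. NCU03633 was lowered to 0.274 (0.209 to 0.357), with 73.7, 82.4 and 44.7 RPKM at S in Δmak-1, Δmak-2 and the wild type and 275, 165 and 163 RPKM at A. In the mutants at S the only call before rescaling was NCU00828, with 25.2 RPKM in Δmak-1 and 38.7 RPKM in Δmak-2 against 50.5 RPKM in the wild type. Its ratio of 0.499 in Δmak-1 (0.385 to 0.643) lay just inside the threshold, and was 0.509 with 1 RPKM added. After rescaling 2 were lowered in Δmak-1 at S, the other being NCU01751. Its ratio before rescaling was 0.517 (0.424 to 0.628). NCU03151, the highest of these genes, had 412 RPKM in Δmak-1, 683 RPKM in Δmak-2 and 367 RPKM in the wild type at S, and 428, 749 and 716 RPKM at A. Its wild-type ratio of 0.512 (0.473 to 0.555) lay just outside the threshold, and rescaling brings it to 0.292, a lowered call.

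In vegetative hyphae 2 further genes of this kind were called, both in Δmak-2. NCU02117 had 43.9, 51.6 and 38.4 RPKM at S in Δmak-1, Δmak-2 and the wild type, and 22.0, 34.4 and 14.5 RPKM at A, with Δmak-2 at 2.38 times the wild type at A (1.68 to 3.40). NCU01751 had 21.1, 29.4 and 40.8 RPKM at S and 7.76, 5.36 and 10.9 RPKM at A, with Δmak-2 at 0.491 times the wild type at A (0.311 to 0.762), an interval that crosses 0.5. Both calls were kept after rescaling. The remaining 6 genes without a named product were called between stages only or not at all. NCU00293, NCU01821, NCU04099 and NCU06647 were raised 2.15-fold to 3.29-fold at S in the wild type, none of them after rescaling. NCU05419 (35.2 to 91.4 RPKM) was not called in the 5 comparisons, and NCU01611 stayed at or below 8.21 RPKM.

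Across the 50 members, 9 were raised at S relative to A in each of the 3 strains (12.8% of all entries were) and 5 were lowered in each (2.91% of all entries). The 9 were NCU00346, NCU03362, *pex19*, *xdh-1*, NCU01751, NCU03556, NCU04099, NCU06647 and NCU08382. After rescaling NCU00346 and NCU03556 alone were raised in each strain (5.87% of all entries were), and 8 members were lowered in each (6.28% of all entries), the other 3 being *erg-1*, NCU04983 and NCU05278. Before rescaling, the 5 were NCU02624, NCU06402, NCU06207, *cat-1* and NCU03633, the last with a ratio of 0.4998 in Δmak-2 (0.405 to 0.615). Within Δmak-1, 12 members were raised at S and 7 lowered, beside 21.0% and 6.11% of all entries. Within Δmak-2 the counts were 23 and 6, beside 25.6% and 5.81%. The shares raised among entries above 10 RPKM were 32.6% in Δmak-1 and 41.4% in Δmak-2. After rescaling the counts of members became 4 and 13 in Δmak-1, beside 12.8% and 10.9% of all entries. In Δmak-2 they became 8 and 9, beside 12.4% and 12.7%. The members lowered in both mutants at S were *cel-1* and *ods* (4.01% of all entries were lowered in both), and none was raised in both (3.48% of all entries were).

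**Figure D5:**
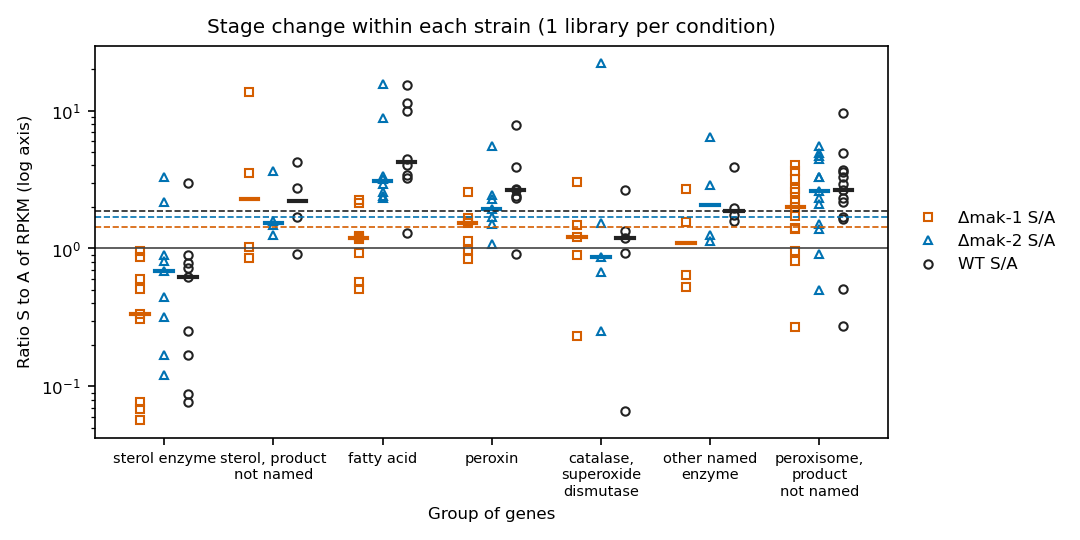
Ratio of the protoperithecial stage to vegetative hyphae (log axis) within each strain, 1 symbol per gene, with a short bar at the median of each group and dashed lines at the medians of all entries above 10 RPKM (1.42 in Δmak-1, 1.69 in Δmak-2 and 1.86 in the wild type). The fatty acid genes have medians of 1.18 in Δmak-1, 3.07 in Δmak-2 and 4.21 in the wild type, and the named sterol enzymes have medians below 1 in each strain.

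Genes next to these pathways were looked up by lists of their own. Of 11 genes of the terpenoid backbone pathway, which supplies the precursors of sterols and carotenoids, 2 were raised in Δmak-1 at S and none lowered (1 raised after rescaling), and in Δmak-2 2 were raised and 1 lowered. NCU03922, annotated as hydroxymethylglutaryl-CoA synthase, an early enzyme of that pathway, and chosen after its values were seen, had 89.8 RPKM in Δmak-1, 145 RPKM in Δmak-2 and 59.1 RPKM in the wild type at S, and 148, 62.4 and 139.8 RPKM at A. Like the 2 sterol genes raised in Δmak-2 at S, it had fallen in the wild type (ratio 0.423) and was 2.44 times the wild type in Δmak-2. Unlike them, it was called lowered in Δmak-2 at A, at 0.446 times the wild type. Its ratio of S to A within Δmak-2 was 2.32, whereas both sterol genes had ratios under 1 there. The median ratio of the 11 genes in Δmak-2 at S was 1.11. Of 13 further *pex* genes without the pathway code, a list added by symbol once the table was known, 4 were raised and 2 lowered at S in the wild type (1 and 3 after rescaling), and at S 1 was raised in Δmak-1 and none was called in Δmak-2. Of 55 entries with gene ontology terms for sterols, fatty acids, acyl-CoA, peroxisomes or glyoxysomes, 31 were raised and 5 lowered at S in the wild type (14 and 8 after rescaling). In that list Δmak-1 had 3 raised and 5 lowered at S (0 and 5 after rescaling), and Δmak-2 2 and 2. Over all entries, 29.3% were raised and 6.51% lowered at S in the wild type (14.5% and 13.7% after rescaling). Among entries above 10 RPKM these shares were 46.5% and 10.3%. Relative to the wild type at S, 7.15% of all entries were raised and 5.43% lowered in Δmak-1, and 5.47% and 6.84% in Δmak-2. The lists overlap, and NCU03922 and *pex14* are each on more than 1 of them.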

How the data were processed

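Mixed RNA of 3 repeats per condition was sequenced single-end. CASAVA 1.8 is named in the submitters' processing notes, and which aligner, counting tool and genome build were used is not given in the sources used here. For 9872 entries, 9808 of them with an NCU locus, the authors deposited RPKM values, in which the reads of an entry are divided by the library's mapped reads and by the length of the exon model. The deposited columns of ratios between conditions are the study's own comparisons and were not used.

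RPKM is normalized by the total of mapped reads, so a few abundant transcripts can shift all other values of a library. Since each value is a whole multiple of what 1 read is worth, read numbers could be recovered for 8912 of 8913 entries, those above 0 in 2 or more libraries. A further 639 entries were at 0 in all libraries. Where all 6 counts of a gene share a factor, the smallest counts were taken, which can only widen its interval. Of the recovered gene lengths 85.3% were multiples of 3. The recovery, the calls and the intervals were tested on simulated data.

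Members were found by pathway code, 48 matched to RefSeq (assembly NC12) by locus tag and 2 by an old tag, and names and gene order came from there. The members and lists were chosen with earlier results of these data known. Named genes were those with a named product, the 3 highest and 3 lowest called ratios per pathway and comparison with at least 30 reads, members called in both mutants or in opposite directions, and the 10 highest in RPKM. Others are named where they lie nearest to a threshold or close a count.

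With 1 library per condition there is no significance test. The 5 comparisons were S with A in the wild type, and Δmak-1 or Δmak-2 with the wild type at S and at A. The stage ratio within each mutant was set beside them. Alternatives were scaling by the median of ratios (7705 entries above 0 in all libraries, with the 10 RPKM minimum applied to the scaled values), no RPKM minimum, 1 RPKM added, a 1.5-fold threshold and the whole 95% interval beyond the threshold. The software was scipy 1.17.1, numpy 2.4.6 and pandas 2.3.3 under Python 3.11.15, with matplotlib 3.10.9 for plots. Sequences were not analysed here, and the values of 1 member under Peroxisome are not reported here.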

Additional observations from a re-analysis of the deposited data

Results flagged for a closer look

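In 4 cases the effect of a deletion had opposite directions in the libraries compared. None of these differences was tested, because each condition is 1 library. *cel-2*, the fatty acid synthase beta subunit gene, had 0.181 times the wild-type level in Δmak-1 at the protoperithecial stage and 3.11 times in vegetative hyphae. *ods* showed the same contrast in Δmak-1, with 0.123 times at the protoperithecial stage and 2.77 times in hyphae. *cat-3*, a catalase gene, had 4.04 times the wild-type level in Δmak-2 at the protoperithecial stage and 0.171 times in hyphae. At the protoperithecial stage *cat-3* also differed between the mutants, with 0.346 times the wild-type level in Δmak-1 and 4.04 times in Δmak-2. All 4 pairs stayed on opposite sides of the thresholds after rescaling by the median of ratios.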

How the results depend on the processing

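No paired analysis was possible because each condition is 1 library without a replicate number, and for the same reason no library could be left out. Called ratios could not move to the other side of 1 with rescaling, since its largest shift, 0.81 on the log2 scale, is under 2-fold. Adding 1 RPKM cannot move any ratio across 1 either, so neither alternative checks the direction of a call. Several counts moved by over 1.5 times. Rescaling by the median of ratios gave 11 members raised between stages in the wild type in place of 23, and 6 raised in Δmak-1 in hyphae in place of 11. Without the RPKM minimum 3 members were raised in Δmak-1 at the protoperithecial stage in place of 0 (14.2% of all entries). With a 1.5-fold threshold, 4 were raised (0) and 11 lowered (6) in Δmak-1 at the protoperithecial stage, and 11 raised (4) and 5 lowered (2) in Δmak-2, beside 13.3%, 10.6%, 11.4% and 12.6% of all entries. In hyphae 20 were then raised (11) in Δmak-1, and 5 raised (2) and 5 lowered (2) in Δmak-2, beside 20.9%, 9.93% and 6.92%. With the whole counting interval beyond the threshold, 1 member was raised (4) in Δmak-2 at the protoperithecial stage (326 of all 9872 entries). In hyphae 7 were then raised (11) in Δmak-1, and 1 raised (2) and 1 lowered (2) in Δmak-2, beside 4.08%, 1.19% and 1.54% of all entries. With 1 RPKM added, 1 was lowered (2) in Δmak-2 in hyphae (2.98% of all entries). The lowered counts of the wild type between stages stayed within 1.5 times under all 5 alternatives. Between 35.5 and 50.1 reads at 10 RPKM limit the call of weak genes.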

Other observations

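Other lipid lists gave the following counts, as values only. Of 16 glycerophospholipid genes, 11 were raised and none lowered between hyphae and the protoperithecial stage of the wild type (6 raised and 3 lowered after rescaling by the median of ratios). Over all entries, 29.3% were raised and 6.51% lowered (14.5% and 13.7% after rescaling). All 16 exceeded 10 RPKM, and 46.5% of all such entries were raised. Against the wild type at that stage, 5 of the 16 were lowered in Δmak-1 and 3 in Δmak-2, and none was raised, with these counts the same after rescaling. Over all entries, 5.43% were lowered and 7.15% raised in Δmak-1 there, and 6.84% and 5.47% in Δmak-2. For entries above 10 RPKM alone, these shares were 8.35% and 11.0% in Δmak-1, and 10.7% and 8.56% in Δmak-2. Of 8 sphingolipid genes, 5 were raised and none lowered in Δmak-1 in hyphae (4 after rescaling), with a median ratio of 2.37, and none was called in Δmak-2 there. Over all entries, 9.96% were raised in Δmak-1 in hyphae (4.85% after rescaling). Among entries above 10 RPKM, 18.5% were raised there, with a median ratio of 1.33. *acd-1*, annotated to the glyoxysome and chosen after its values were seen, had, at the protoperithecial stage, 68.3 RPKM in Δmak-1 and 75.4 RPKM in Δmak-2 against 243 RPKM in the wild type. In hyphae it had 36.4 RPKM in Δmak-1 and 18.8 RPKM in Δmak-2 against 23.7 RPKM in the wild type.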
